A study of Homo sapiens with 12 samples.

Results

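The genes described here are 10 components of the canonical Wnt pathway, namely *CTNNB1*, *APC*, *AXIN1*, *AXIN2*, *GSK3B*, *TCF7*, *TCF7L1*, *TCF7L2*, *LEF1* and *RNF43*, out of 58037 genes in the count table. They were listed by name, with no measured value in the rule but with earlier results of these data known, and all 10 were found in the table. RNA-seq of poly-A enriched RNA was performed on HCT116, a human colorectal carcinoma cell line, with 3 samples for each of 4 treatments of 8 h. The cells, labelled wild type, received the solvent DMSO, Nutlin-3a at 10 μM, NVP-2 at 20 nM, or both compounds at these doses. Nutlin-3a activates p53 by blocking its interaction with MDM2, and NVP-2 inhibits the CDK9 kinase of P-TEFb. The number of genes whose value varied among the 12 columns of the table was 0 of 58037, so the columns were counted as 1 sample. The values below are therefore those of a single HCT116 profile of unknown treatment with 22720718 counts, read from the column of DMSO replicate 1. With no second distinct column there is no replicate error and no measurement of either drug, and every interval given is a 95% interval for counting error only.

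In the canonical Wnt pathway, β-catenin, which *CTNNB1* encodes, is captured by a cytoplasmic destruction complex built on the scaffolds axin and APC, phosphorylated there by CK1 and GSK3 kinases and degraded. Binding of Wnt ligands to Frizzled and LRP receptors disables the complex, whereupon β-catenin enters the nucleus and joins DNA-bound factors of the TCF/LEF family to activate target genes, some of which, such as *AXIN2*, *RNF43* and *ZNRF3*, dampen the pathway again. Most colorectal carcinomas carry a lesion that keeps the pathway active. HCT116 cells are known to have intact *APC* and a heterozygous in-frame deletion in *CTNNB1* that removes a phosphorylation site of the degradation signal. Counts per gene do not distinguish the alleles, so the values of *CTNNB1* below are the sum over both.

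The profile carried the epithelial identity of the line, while its colonic markers were low. Levels are given as counts, as counts per 1000000 counts of the column (CPM), and as RPKM, which is the CPM per kilobase of exon sequence and is the scale on which genes are compared with each other. The epithelial genes *KRT8*, *KRT18* and *EPCAM* had 80391, 34234 and 10028 counts, whereas among the colonic markers *CDX2* had 65 counts, *KRT20* 37 and *VIL1* 4. In total, 5 of the 8 epithelial and colon markers reached an RPKM of 1, the level from which the study considered a gene expressed. Among all protein-coding genes, 44.6% did so. Of 10 markers of other cell types, 1 did so, the smooth muscle actin gene *ACTA2* with 609 counts, and the collagen gene *COL1A1*, with 199 counts and an RPKM of 0.972 (0.846 to 1.12), did so on the canonical transcript. The leukocyte gene *PTPRC* and the other collagen gene of the list, *COL1A2*, had 0 counts, as did 24.3% of protein-coding genes.

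RefSeq windows around the transcription start are shown because they belong to the members with the highest and the lowest level, *CTNNB1* and *LEF1*. Each holds 250 bases before and 50 bases after the start in GRCh38.p14, is written 5′ to 3′ on the strand of the gene, and has its CpG dinucleotides in capitals. The window of *CTNNB1* lies at chr3:41199255-41199554 on the plus strand and that of *LEF1* at chr4:108166252-108166551 on the minus strand. For both, the RefSeq start lies inside the GENCODE v44 gene, whose annotated 5′ end is 41194741 for *CTNNB1* and 108168956 for *LEF1*. Neither window covers that 5′ end, and the sequence there was not examined.
CTNNB1: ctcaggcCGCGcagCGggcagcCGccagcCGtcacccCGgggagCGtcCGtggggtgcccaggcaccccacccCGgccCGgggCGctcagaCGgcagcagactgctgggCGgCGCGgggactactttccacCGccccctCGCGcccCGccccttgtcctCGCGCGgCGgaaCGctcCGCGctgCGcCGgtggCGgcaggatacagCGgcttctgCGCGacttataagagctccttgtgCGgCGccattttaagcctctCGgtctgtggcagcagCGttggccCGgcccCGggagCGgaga
LEF1: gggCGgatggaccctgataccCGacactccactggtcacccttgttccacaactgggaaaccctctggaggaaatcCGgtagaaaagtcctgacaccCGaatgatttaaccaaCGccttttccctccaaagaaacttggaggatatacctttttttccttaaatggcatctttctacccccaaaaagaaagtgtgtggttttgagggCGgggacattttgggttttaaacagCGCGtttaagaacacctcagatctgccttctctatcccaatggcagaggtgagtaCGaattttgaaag
The window of *CTNNB1* held 39 CpG dinucleotides at a GC content of 74.0%, and that of *LEF1* held 9 at 47.0%, beside a median of 14 CpG dinucleotides over all 35116 windows. Across the members the CpG number did not follow the level. The windows at both annotated starts of *RNF43*, which had an RPKM of 8.19, held 0 and 5 CpG dinucleotides, whereas *TCF7L1*, which had a low level, held 31 and *AXIN1* held 44. The motif ATCAAAG, the core of the sequence that TCF/LEF factors bind, was searched on both strands. It was found in 0 of the 14 windows available for 9 of the members, compared with 2.62% of all windows, and the search says nothing about sites outside these 300 bases. *AXIN2* had no window in the table.

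**Figure D1:**
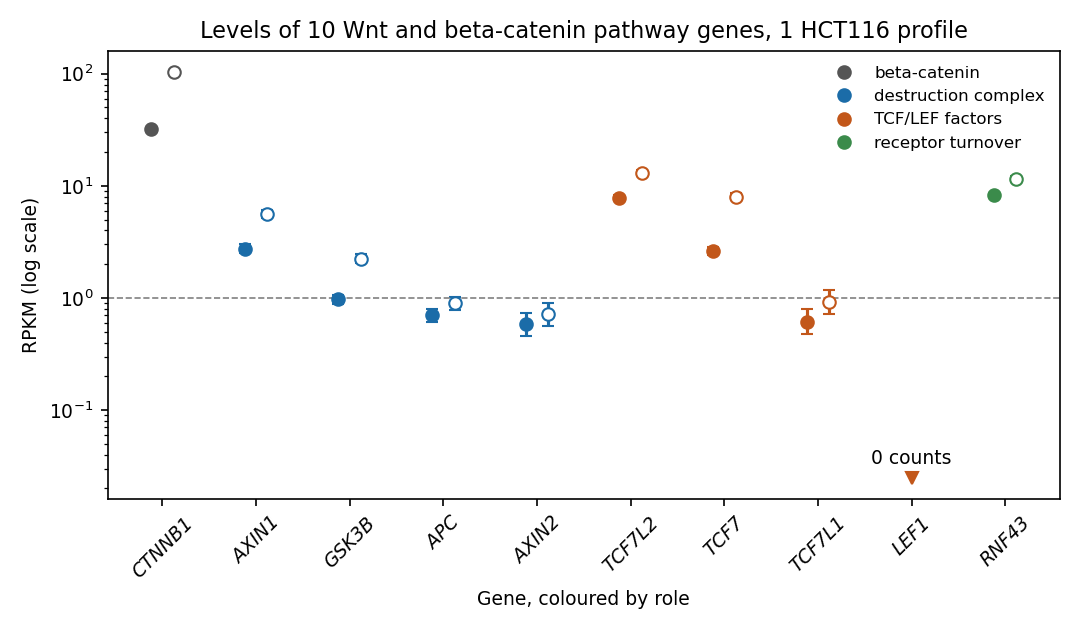
RPKM on a log scale of the 10 genes in the single HCT116 profile, coloured by role, with 95% Wilson intervals for counting error. Filled points use the merged exons of the gene as its length and open points the canonical transcript, the dashed line marks an RPKM of 1, and the triangle for LEF1, which had 0 counts, marks the level that 3 counts would give (0.0246); CTNNB1 stands above all other members on either length.

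*CTNNB1* was the most abundant member. It had 8577 counts, or 377 CPM, and an RPKM of 32.1 (31.4 to 32.8), which placed it at rank 1223 of 19629 protein-coding genes. In hg38 the gene lies on the plus strand of chromosome 3 between 41194741 and 41260096 (65356 bp). Of the 3661 nt of its canonical transcript, spread over 15 exons, 2343 nt are coding. Its level was 3.92 times (3.69 to 4.17) that of *RNF43*, the next member in the order. β-catenin also links E-cadherin to α-catenin at adherens junctions, and the genes of these partners were well expressed as well. *CTNNA1*, encoding α-catenin, had 10924 counts and an RPKM of 54.5, *JUP*, encoding the β-catenin paralog plakoglobin, 4631 counts and an RPKM of 41.2, and *CDH1*, encoding E-cadherin, 1484 counts and an RPKM of 10.8. All 5 genes of the junction list, *CTNNB1* among them, had an RPKM of at least 1, a level reached by 44.6% of protein-coding genes. Which of the paralogs *CTNNB1* and *JUP* was higher depended on the length used. Per kilobase of merged exons *CTNNB1* had 0.778 times (0.751 to 0.807) the level of *JUP*, and per kilobase of canonical transcript 1.77 times (1.71 to 1.84).

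The members that act in the destruction complex had lower levels than *CTNNB1*, whose product is the substrate of the complex. *AXIN1*, the constitutively expressed axin scaffold, had 471 counts and an RPKM of 2.75 (2.51 to 3.01). *GSK3B*, encoding the β isoform of the GSK3 kinase, had 394 counts and an RPKM of 0.970 (0.879 to 1.07), an interval that includes the threshold of 1. *APC*, the scaffold encoded by the tumour suppressor gene that is most often mutated in colorectal carcinoma, had 217 counts and an RPKM of 0.701 (0.614 to 0.801). *AXIN2*, the inducible axin paralog and a transcriptional target of the pathway, had 69 counts and an RPKM of 0.584 (0.462 to 0.739). The level of *CTNNB1* per length was thus 11.7 times (10.6 to 12.8) that of *AXIN1*, 33.1 times (29.9 to 36.7) that of *GSK3B* and 45.8 times (40.0 to 52.6) that of *APC*. On canonical transcripts these ratios were 18.4 (16.8 to 20.3), 46.0 (41.6 to 51.1) and 116 (101 to 133), in the same order. They are ratios of mRNA levels and say nothing about protein amounts.

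These members differ widely in how long their transcripts are and where they lie. *APC* occupies 138722 bp on the plus strand of chromosome 5 between 112707518 and 112846239, and 8529 nt of its canonical transcript of 16 exons are coding. *GSK3B* covers 273674 bp on the minus strand of chromosome 3 between 119821321 and 120094994, and 5470 of the 7743 nt of its canonical transcript belong to the 3′ UTR. *AXIN1* lies on the minus strand of chromosome 16 between 287440 and 352723, and *AXIN2* on the minus strand of chromosome 17 between 65528563 and 65561648, both with 11 exons and with coding sequences of 2586 and 2529 nt. In raw counts *GSK3B* stood at 1.82 times (1.54 to 2.15) the level of *APC*, per kilobase of merged exons at 1.38 times (1.17 to 1.64), and per kilobase of canonical transcript at 2.51 times (2.12 to 2.98).

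Within the paralog pairs of the complex, 1 gene provided most of the mRNA. Between the axins, *AXIN1* was 4.71 times (3.65 to 6.15) as high as *AXIN2* and made up 82.5% of their summed RPKM. Between the GSK3 kinases, *GSK3A* had 1176 counts and an RPKM of 8.95, which is 9.23 times (8.22 to 10.4) that of *GSK3B*, so that *GSK3B* was the lower of the paralogs. In counts without length the ratio was 2.98 (2.66 to 3.35). *APC2*, the paralog of *APC*, had 18 counts and an RPKM of 0.0627, and *APC* exceeded it 11.2-fold (6.91 to 19.2). The value of *AXIN2* carries a limit of the annotation, since 1316 nt of its exons overlap a protein-coding gene on the same strand, ENSG00000266076, which had 0 counts in the table. If reads in the shared stretch had not been assigned to either gene, the remaining length would give *AXIN2* an RPKM of 0.782 and a ratio of *AXIN1* to *AXIN2* of 3.51 (2.73 to 4.59). How such reads were treated is not given in the sources used here.

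The list of the complex also takes in the ubiquitin ligase genes *SKP1*, *CUL1*, *FBXW11* and *BTRC*, and its levels were uneven. Of the 12 genes in this list, the 4 members included, 7 had an RPKM of at least 1, the median was 2.71, and none was without counts. The same threshold was reached by 44.6% of all 19629 protein-coding genes, whose median was 0.589. The ubiquitin ligase genes were all among the 7, with *CUL1* at 8.40, *FBXW11* at 7.96 and *BTRC* at 2.66. The others of the 7 were *AXIN1*, *CSNK1A1* and *GSK3A*. Below 1 lay *AMER1* (0.330) and *APC2* (0.0627), besides *GSK3B*, *APC* and *AXIN2*. The highest values were those of *CSNK1A1*, encoding the CK1α kinase that primes β-catenin for GSK3, with 2818 counts and an RPKM of 14.6, of the ubiquitin ligase subunit gene *SKP1* with 4027 counts and an RPKM of 14.0, and of *GSK3A*. The exons of *CSNK1A1* share 4194 nt with a non-coding gene on the same strand that had 103 counts. If reads in the shared stretch had not been assigned to either gene, the remaining length would give *CSNK1A1* an RPKM of 28.8. On canonical transcripts its RPKM was 23.1, against 103 for *CTNNB1*.

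The 4 genes of the TCF/LEF family, whose proteins bring β-catenin to DNA through a shared HMG box, fell into a clear order. *TCF7L2*, encoding TCF4, which is the main family member of the intestinal epithelium, had 1198 counts and an RPKM of 7.83 (7.40 to 8.28). *TCF7*, encoding TCF1, had 599 counts and an RPKM of 2.61 (2.41 to 2.83). *TCF7L1*, encoding TCF3, which acts largely as a repressor, had 62 counts and an RPKM of 0.616 (0.480 to 0.789). *LEF1*, which is prominent in lymphoid cells, had 0 counts, where 3 counts would give 0.132 CPM and an RPKM of 0.0246, and the Wilson interval of its RPKM reached 0.0315.

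*TCF7L2* was 3.00 times (2.71 to 3.31) as high as *TCF7* and 12.7 times (9.84 to 16.7) as high as *TCF7L1*, and *TCF7* was 4.24 times (3.26 to 5.60) as high as *TCF7L1*. Against a floor of 3 counts over the whole column for *LEF1*, and taking the measured level of the other gene without its own counting error, *TCF7L2* was at least 318-fold higher, *TCF7* at least 106-fold and *TCF7L1* at least 25-fold. No interval between the family members reached 1, on merged exons or on canonical transcripts, so the order of the family held on both lengths. The distance between the leading genes did depend on the length, with *TCF7L2* at 1.61 times (1.46 to 1.78) the level of *TCF7* on canonical transcripts. *TCF7L2* accounted for 70.8% of the summed RPKM of the family on merged exons and 59.2% on canonical transcripts, and *TCF7* for 23.6% and 36.7%. A count of 0 was not rare in itself, as 24.3% of protein-coding genes had none.

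**Figure D2:**
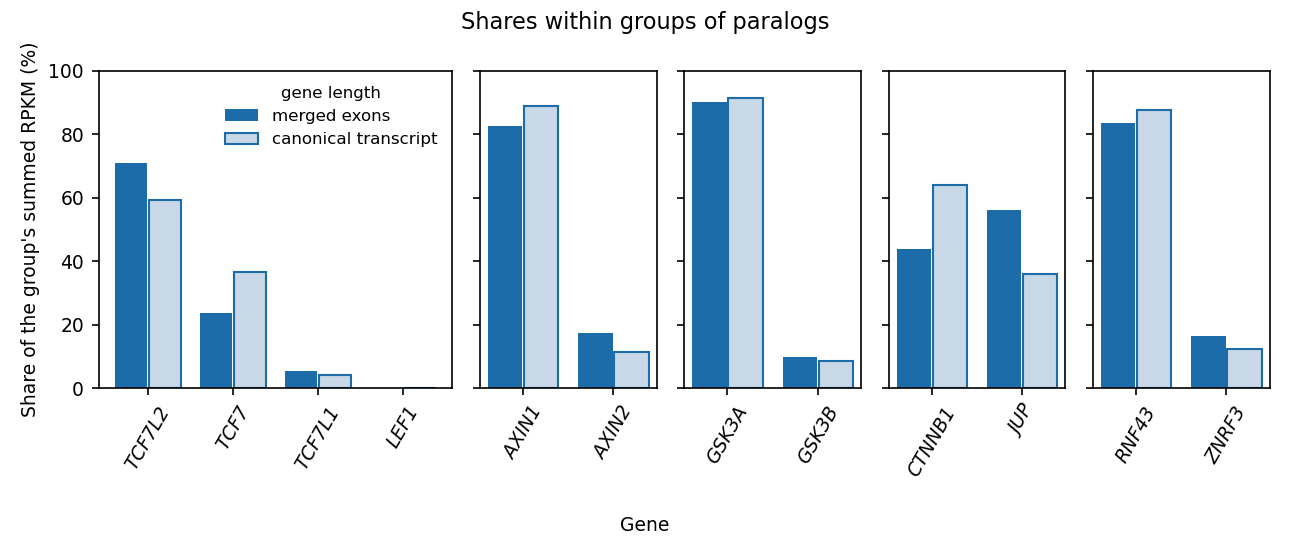
Share of the summed RPKM held by each gene within 5 groups of paralogs, with the merged exons (dark bars) or the canonical transcript (light bars) as gene length, in the single profile without replicates. TCF7L2, AXIN1, GSK3A and RNF43 hold the larger part of their groups on both lengths, whereas CTNNB1 and JUP change places (43.8% against 63.9% for CTNNB1).

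The TCF/LEF genes have many annotated alternative exons, so merged exons and the canonical transcript give different lengths. *TCF7L2* covers 217432 bp on the plus strand of chromosome 10 between 112950247 and 113167678, and its annotated transcripts comprise 66 distinct exons, against 15 in the canonical transcript. *TCF7*, at 134114681 to 134151865 on the plus strand of chromosome 5, has 58 distinct exons, and its merged exons are 3.07 times as long as its canonical transcript. At its 3′ end *TCF7* overlaps 210 nt of *SKP1* exons on the opposite strand, which a strand-specific count keeps apart. *TCF7L1* lies on the plus strand of chromosome 2 from 85133392 to 85310387, and *LEF1* on the minus strand of chromosome 4 from 108047545 to 108168956. Reads can be told apart between the paralogs, since 0 of the 75-base stretches of any of the 4 TCF/LEF genes occurred in an annotated transcript of another gene, 75 bases being the read length.

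TCF/LEF factors activate or repress according to the cofactors they bind, and 13 of the 16 cofactor genes in this list had an RPKM of at least 1, beside 44.6% of protein-coding genes, with 4.02 as the median. The highest was *TLE5*, encoding a short Groucho-family protein, with 5409 counts and an RPKM of 45.5, followed by *BCL9L*, encoding an adaptor that joins β-catenin to Pygopus, with 5203 counts and an RPKM of 21.2. *PYGO2* had 1159 counts and an RPKM of 13.9, while *TLE4*, encoding a Groucho corepressor, had 0 counts.

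On merged exons *RNF43* had the second highest RPKM of the members, within counting error of *TCF7L2* (1.05 times, 0.965 to 1.13). On canonical transcripts it lay below *TCF7L2* (0.886 times, 0.817 to 0.961). *RNF43* encodes a transmembrane ubiquitin ligase that removes Frizzled receptors from the cell surface, and it had 1178 counts and an RPKM of 8.19 (7.74 to 8.67). The gene lies on the minus strand of chromosome 17 from 58353676 to 58417595, and the 10 exons of its canonical transcript hold 2349 coding nt. Its paralog *ZNRF3* had 256 counts and an RPKM of 1.61, so that *RNF43* was 5.08 times (4.44 to 5.84) as high. In GENCODE v44, 4326 nt of *RNF43* exons also belong to a protein-coding gene on the same strand, ENSG00000285897, for which the count table has no row. Of the 75-base stretches of *RNF43* transcripts, 64.4% also occurred in those of that gene. Reads from these stretches cannot be told apart, so the value of *RNF43* may include reads of that gene.

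*RNF43* and *AXIN2* are both negative feedback targets of the pathway, yet their levels lay far apart, with *RNF43* 14.0 times (11.0 to 18.1) as high as *AXIN2*. Without the exon sequence that *AXIN2* shares, the ratio was 10.5 (8.21 to 13.5). The sequence that *RNF43* shares was left in for both ratios. The whole list of feedback and target genes, which holds members such as *LEF1* too, was also uneven. Of 21 genes in this list, 11 had an RPKM of at least 1, the median was 1.61, and 4 had 0 counts, shares near the 44.6% and 24.3% of protein-coding genes. The highest were *CCND1*, encoding the cell cycle regulator cyclin D1, with 24646 counts and an RPKM of 228, the transcription factor gene *MYC* with 11711 counts and an RPKM of 84.4, and the adhesion receptor gene *CD44* with 17921 counts and an RPKM of 78.9. All 3 respond to many signals besides Wnt. The genes with 0 counts were *LEF1*, the intestinal stem cell genes *LGR5* and *ASCL2*, and *APCDD1*, which encodes a membrane inhibitor of Wnt signalling.

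**Figure D3:**
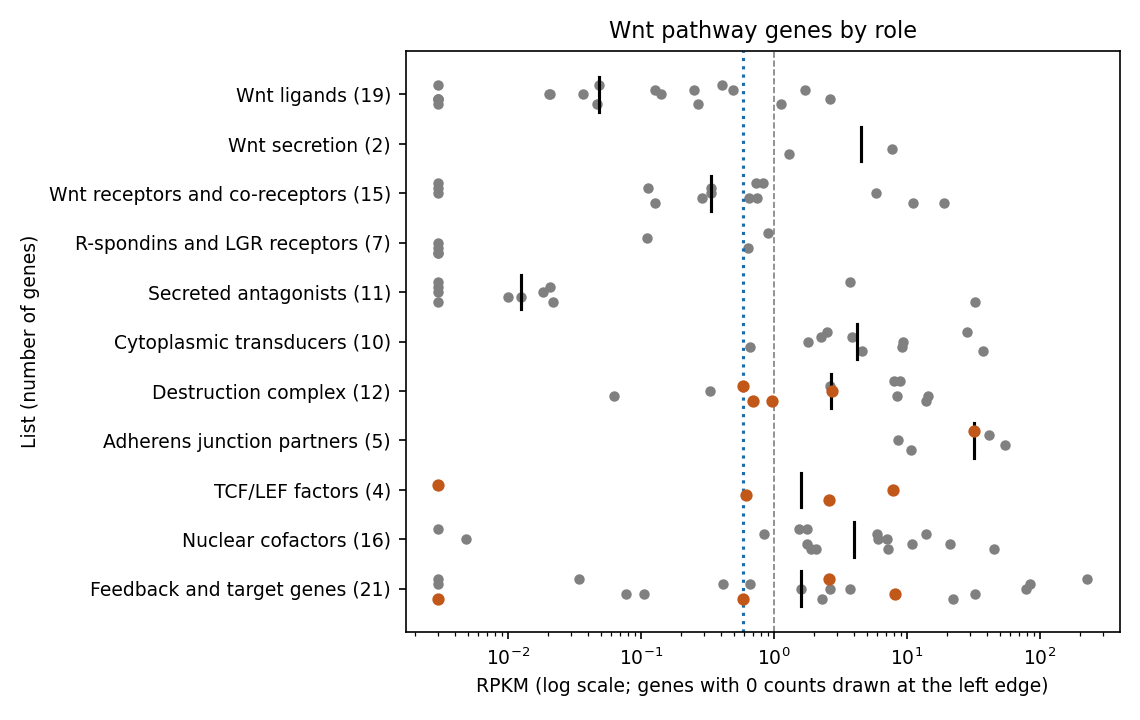
RPKM on a log scale of the pathway genes by role, with the number of genes per list in brackets, the 10 members in orange and all others in grey. Black bars are list medians (none is drawn where it is 0), the dotted line is the median of protein-coding genes (0.589), the dashed line an RPKM of 1, and points at the left edge had 0 counts; ligands, R-spondins and secreted antagonists lie mostly to the left of both lines, and transducers, junction partners and cofactors mostly to the right.

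Upstream of the members, the genes for ligands and the genes for intracellular transducers differed in level. Beside the 44.6% of protein-coding genes at an RPKM of at least 1, 3 of 19 Wnt ligand genes reached it, which are *WNT10B* with 156 counts and an RPKM of 2.64, *WNT16* with 127 and 1.71, and *WNT7B* with 131 and 1.14. The median ligand had an RPKM of 0.0486. Of the 19 ligand genes, *WNT1*, *WNT2*, *WNT5A*, *WNT8A* and *WNT9B* had 0 counts, a share near the 24.3% of protein-coding genes. Both genes for Wnt secretion passed the threshold, with *WLS*, encoding the carrier that brings Wnt proteins to the surface, at 792 counts and an RPKM of 7.82, and *PORCN*, encoding the acyltransferase that lipidates them, at 173 counts and 1.31.

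Of 15 receptor and co-receptor genes, 3 had an RPKM of at least 1, again beside 44.6% of protein-coding genes. These were *LRP5*, a co-receptor gene, with 2696 counts and an RPKM of 19.2, *FZD6* with 1022 counts and 11.1, and *RYK* with 1084 counts and 5.85. *FZD8*, *FZD9* and *FZD10* had 0 counts, as did 24.3% of protein-coding genes. *LRP6*, the second co-receptor gene, had 178 counts and an RPKM of 0.756, and *LRP5* exceeded it 25.4-fold (21.8 to 29.7), a pair that was chosen after its values were seen. R-spondins bind LGR receptors and draw RNF43 and ZNRF3 away from Frizzled. On merged exons none of the 7 genes of this axis had an RPKM of at least 1. The highest was *LGR4* with 130 counts and an RPKM of 0.900 (0.758 to 1.07), which passed 1 on the canonical transcript (1.09), followed by *RSPO2* with 64 counts and 0.647 and *RSPO4* with 7 counts and 0.112. *RSPO1*, *RSPO3*, *LGR5* and *LGR6* had 0 counts, beside the 24.3% of protein-coding genes without counts.

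Among 11 genes for secreted antagonists, 2 had an RPKM of at least 1. *DKK1*, encoding an LRP antagonist and itself a target of the pathway, had 1648 counts and an RPKM of 32.7, and *NOTUM*, encoding a deacylase that inactivates Wnt proteins, had 246 counts and 3.72. None of the other 9 genes exceeded 5 counts, the number of *DKK3*. *DKK4*, *SFRP1*, *SFRP5* and *SOST* had 0, beside 24.3% of protein-coding genes. In the cytoplasm, 9 of 10 transducer genes had an RPKM of at least 1, led by *DVL1*, encoding the Dishevelled protein that couples receptors to axin, with 3289 counts and an RPKM of 37.3. The kinase gene *CSNK1G2* had 2429 counts and an RPKM of 28.3, and *DVL3* had 1336 counts and 9.33. Over all 115 pathway genes 54, or 47.0%, had an RPKM of at least 1, which is near the 44.6% of protein-coding genes.

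**Figure D4:**
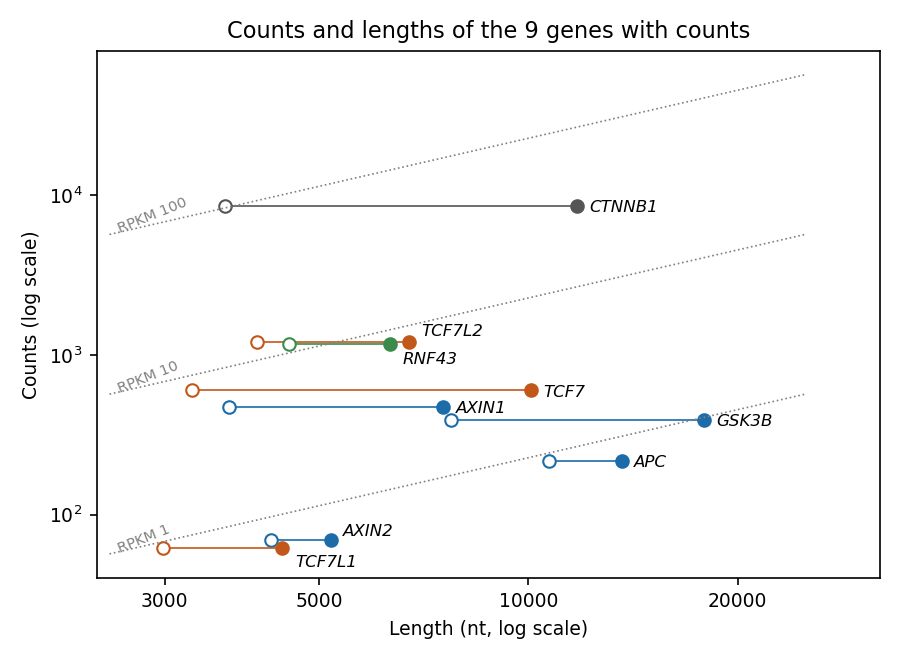
Counts against length, both on log scales, for the 9 members with counts, with filled points at the length of the merged exons and open points at that of the canonical transcript, joined by a line per gene. Dotted lines mark equal RPKM; RNF43 and TCF7L2 have nearly equal counts (1178 and 1198) and lie close together on either length, and GSK3B moves across an RPKM of 1.

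Ordered by RPKM on merged exons, the members ran from *CTNNB1* through *RNF43*, *TCF7L2*, *AXIN1*, *TCF7*, *GSK3B*, *APC*, *TCF7L1* and *AXIN2* to *LEF1*. On this length several neighbours in the order did not differ beyond counting error. The ratio was 1.05 (0.965 to 1.13) for *RNF43* to *TCF7L2*, 1.05 (0.931 to 1.19) for *AXIN1* to *TCF7*, 1.14 (0.855 to 1.53) for *APC* to *TCF7L1* and 1.05 (0.736 to 1.51) for *TCF7L1* to *AXIN2*. On canonical transcripts the first and second of these pairs turned round, to 0.886 (0.817 to 0.961) and 0.697 (0.617 to 0.788). *APC* to *TCF7L1* turned round as well, to 0.976, but within counting error (0.733 to 1.32). On merged exons the other steps between genes with counts were larger than counting error, with *TCF7L2* at 2.85 times (2.56 to 3.17) the level of *AXIN1*, *TCF7* at 2.69 times (2.37 to 3.06) that of *GSK3B*, and *GSK3B* at 1.38 times that of *APC*. *CTNNB1* thus stood alone at the top, *RNF43* and *TCF7L2* followed, then *AXIN1* and *TCF7*, then *GSK3B*, and last *APC*, *TCF7L1* and *AXIN2*, with *LEF1* at 0 counts. Of the 10 members, 5 had an RPKM of at least 1, which is near the 44.6% of protein-coding genes, and *GSK3B* joined them with the canonical transcript as length (2.24) or without mitochondrial genes in the total (1.08).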

How the data were processed

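The authors mapped the reads to hg38 (GRCh38 per the labels) and human rRNA sequences with ContextMap and BWA, and counted them per gene and strand with featureCounts and Gencode version 25. The values they deposited are raw counts, in 12 columns named for the samples. All columns were identical, so the edgeR comparisons of treatments that had been planned were not run. Identifiers were matched without version suffix to GENCODE v44, and 56948 of 58037 matched, with 99.8% of the counts. CPM scales each count to the column total of 22720718, and RPKM divides the CPM by the merged exons of GENCODE v44, which can hold exons unknown to version 25. Intervals are Wilson intervals for a level and exact Clopper-Pearson intervals on the split of the counts of both genes for a ratio. Both were tested on simulated data with scipy 1.17.1 in Python 3.11.15. Gene lists and the names of the members were drawn up with earlier results of these data known. From each list the 3 highest genes and those with 0 counts are named, besides the members, their paralogs and the marker genes given as a check of the cell type. Promoter windows are from RefSeq. The planned comparison of protein sequences was not run.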

Additional observations from a re-analysis of the deposited data

How the results depend on the processing

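No paired analysis was possible because the 12 columns are identical, and other settings of the tests between treatments, such as leaving out a replicate, were not run for the same reason. With a CPM of at least 1, or at least 10 counts, 9 of the members passed in place of 5. Of the 19629 protein-coding genes, 11376 had a CPM of at least 1 and 12331 had at least 10 counts, in place of 8754 at an RPKM of 1. With canonical transcripts 6 members took another place in the order, and also 6 by CPM, while TPM and a total without mitochondrial genes (10.4% of counts) moved none. With canonical transcripts, the ratio was 1.61 for *TCF7L2* to *TCF7*, 8.77 for *TCF7* to *TCF7L1*, 7.84 for *AXIN1* to *AXIN2*, 10.5 for *GSK3A* to *GSK3B*, 6.99 for *RNF43* to *ZNRF3*, 30.0 for *LRP5* to *LRP6*, and 116, 18.4 and 46.0 for *CTNNB1* to *APC*, *AXIN1* and *GSK3B*. It reversed for *CTNNB1* to *JUP* (1.77), and among neighbours for *RNF43* to *TCF7L2* (0.886), *AXIN1* to *TCF7* (0.697) and *APC* to *TCF7L1* (0.976). Without length, the ratios were 2.00 for *TCF7L2* to *TCF7*, 19.3 for *TCF7L2* to *TCF7L1*, 9.66 for *TCF7* to *TCF7L1*, 6.83 for *AXIN1* to *AXIN2*, 2.98 for *GSK3A* to *GSK3B*, 15.1 for *LRP5* to *LRP6*, and 39.5, 18.2 and 21.8 for *CTNNB1* to *APC*, *AXIN1* and *GSK3B*. Without length, *CTNNB1* to *JUP* (1.85), *RNF43* to *TCF7L2* (0.983), *AXIN1* to *TCF7* (0.786) and *TCF7L1* to *AXIN2* (0.899) reversed. Another alternative, chosen after seeing the data, left out of the length the exon sequence shared with a gene that has a row of counts. It gave 3.51 for *AXIN1* to *AXIN2*, 10.5 for *RNF43* to *AXIN2* and a reversed 0.787 for *TCF7L1* to *AXIN2*. These changes follow from the lengths used. The share of genes at or above an RPKM of 1 was 43.5% when all genes with at least 1 count stood in for the protein-coding ones. A single profile of this depth limits the precision of *TCF7L1* and *AXIN2* most, and for a gene at 0 counts the floor of 3 counts is 0.132 CPM and the Wilson limit 0.169 CPM.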
